A study of Mus musculus with 8 samples.

Results

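The genes described here are 40 mouse genes of DNA replication and S phase, of 19938 genes measured on Affymetrix MoGene ST arrays. They were chosen by symbol: a probe set counted as a member where the platform annotation gave it exactly 1 symbol and that symbol was on the list. All 40 were found, and 2 of them (Pcna and Tk1) had a second probe set, in which case the brighter was used. The study cultured 2 mouse lines, MBA-15, a pre-osteoblastic stromal line, and DA3, a mammary adenocarcinoma line, either together or apart, and compared the lines after contact. There were 4 groups of 2 arrays: MBA-15 from co-culture, MBA-15 alone, DA3 from co-culture and DA3 alone. All shared the same medium with fetal calf serum, none carried a drug or an engineered allele according to the labels, and every description names 24 h. In co-culture DA3 cells were seeded on an attached MBA-15 layer, and the lines were parted with magnetic particles bound to an antibody against EpCAM, an adhesion protein of epithelial cells. The labels do not say whether the arrays within a group are separate cultures, and the p-values therefore rest on a spread between samples that may be technical.

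DNA replication is prepared in G1, when the origin recognition complex with Cdc6 and Cdt1 loads the ring of Mcm2 to Mcm7 onto DNA, a step called licensing. At the entry to S phase, the cyclin E-dependent kinase and other kinases activate that ring with Cdc45 and the GINS complex. Polymerase alpha with its primase then starts each new strand, and polymerases delta and epsilon extend it on the Pcna clamp. Many of the genes for these proteins are targets of the E2F transcription factors and are transcribed most in late G1 and S phase, which is why their RNA is widely read as a sign of cycling cells.

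Separation was checked with Epcam and marker lists before the replication genes were read. Epcam, on the log2 scale of the arrays, was 9.57 and 9.46 in DA3 alone, 9.30 and 9.38 in co-cultured DA3, and 5.58 and 5.19 in co-cultured MBA-15. The 2 arrays labelled MBA-15 alone gave 8.45 and 9.25, against their label. All 12 epithelial markers were called higher there than in co-cultured MBA-15 (limma, adjusted p under 0.05), with list means of 8.34 and 8.79 against 5.25 and 5.12 in co-cultured MBA-15. The 13 stromal markers averaged 8.47 and 8.45 on the same labelled arrays, 9.07 and 8.64 in co-cultured MBA-15, 6.91 and 6.33 in co-cultured DA3 and 5.72 and 5.78 in DA3 alone. The labelled MBA-15 alone arrays therefore carry both marker sets, and they are called labelled MBA-15 alone below. Descriptions of all 4 alone arrays hold the word mix and name a fraction of the separation; the sources used here do not explain mix. The 7 leukocyte markers averaged 4.04 to 4.38 over the 8 arrays.

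Because E2F sites are the classic shared feature of this gene group, the RefSeq promoters (assembly GRCm38.p6, 250 bases before to 50 after the annotated start) were searched for the E2F words TTTCCCGC, TTTCGCGC, TTTGCCGC and TTTGGCGC on both strands. Of the 40 members 33 had a promoter in the table, and 13 of the 33 (39.4%) held a word, as against 704 of all 27025 genes of the table (2.6%). The 13 were Orc1, Cdc6, Cdt1, Mcm3, Mcm5, Mcm6, Mcm7, Rfc3, Pola1, Pold1, Pole2, Lig1 and Uhrf1. A word match is a description of the letters and does not show binding. The windows that follow show how the same core recurs in licensing, polymerase and chromatin genes. Each is 30 bases, read 5′ to 3′ along the gene's strand, and the capitals mark the E2F word. In Mcm5 and Mcm6 a forward and a reverse word overlap, so that the capitals run over 12 bases.
Orc1 (chr4:108579416-108579445, + strand): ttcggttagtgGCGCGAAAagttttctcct
Cdc6 (chr11:98908002-98908031, + strand): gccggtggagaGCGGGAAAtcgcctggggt
Mcm5 (chr8:75109347-75109376, + strand): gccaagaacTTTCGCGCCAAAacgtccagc
Mcm6 (chr1:128359795-128359824, - strand): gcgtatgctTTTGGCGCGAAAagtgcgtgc
Mcm7 (chr5:138172030-138172059, - strand): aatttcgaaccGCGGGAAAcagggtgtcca
Pole2 (chr12:69228162-69228191, - strand): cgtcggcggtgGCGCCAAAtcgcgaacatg
Uhrf1 (chr17:56304117-56304146, + strand): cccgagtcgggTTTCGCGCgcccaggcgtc

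Pola1, the catalytic subunit of polymerase alpha, is shown with its whole upstream window because it had the widest range of group means of the members and the largest difference between the co-culture fractions. The 250 bases before its start lie at chrX:93632156-93632405 on the minus strand, with the E2F word GCGCCAAA at position -138 and a reversed CCAAT box, ATTGG, at position -37 in capitals.
Pola1: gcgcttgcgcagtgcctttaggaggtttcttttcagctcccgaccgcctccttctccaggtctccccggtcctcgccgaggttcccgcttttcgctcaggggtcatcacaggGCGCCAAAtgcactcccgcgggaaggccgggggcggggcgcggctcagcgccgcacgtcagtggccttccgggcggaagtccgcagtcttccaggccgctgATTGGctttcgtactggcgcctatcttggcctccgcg
The CCAAT box, searched as CCAAT on both strands, was in 20 of the 33 member promoters (60.6%) and in 41.1% of all genes' promoters. It was also in 16 of 21 genes of a mitosis list (76.2%) and in 27 of 49 other replication genes (55.1%). The word of the cell cycle homology region, TTTGAA on both strands, is typical of G2 and mitosis genes. It was in 3 of 33 member promoters (9.09%) and in 20.2% of all. Among the mitosis genes it was in 14 of 21 (66.7%), and among the other replication genes in 14 of 49 (28.6%). The E2F words were in 19 of those 49 (38.8%) and in 1 of the 21 mitosis genes (4.76%).

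Levels come first, in the order of the members' roles. All 40 members had a mean above the highest array median of all genes, and their means ran from 5.10 (Orc1) to 10.35 (Pcna) on the log2 scale. Levels of different genes come from different probes and are not compared. The highest group mean was in DA3 alone for 23 members, in co-cultured MBA-15 for 13 and in labelled MBA-15 alone for 4. For no member was it in co-cultured DA3, which held the lowest mean for 23 members, followed by MBA-15 co-culture with 14 and labelled MBA-15 alone with 3. On average, the 8841 genes with a mean in the members' range were also lowest in co-cultured DA3, at 6.74 and 6.72. They averaged 7.02 and 6.96 in DA3 alone, 6.93 and 6.82 in co-cultured MBA-15, and 6.99 and 7.08 on the labelled MBA-15 alone arrays. The spread of the group means was widest for Pola1 (1.62), E2f1 (1.51) and Gins1 (1.33) and narrowest for Tyms (0.16), the enzyme that makes thymidylate.

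**Figure D1:**
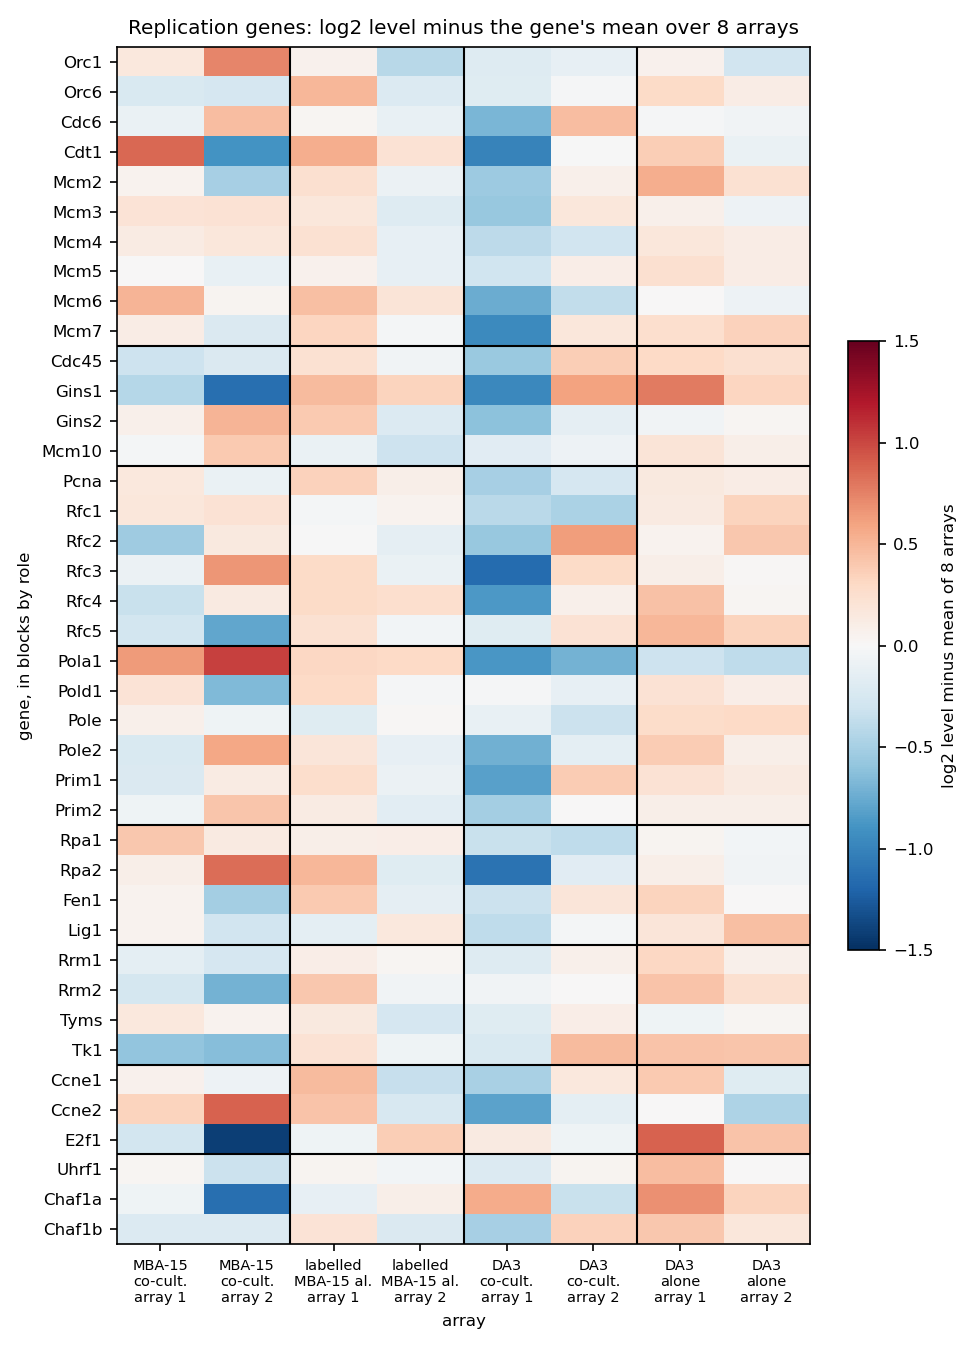
Heat map of the 40 members (rows, in blocks by role) on the 8 arrays (columns); colour is the log2 level minus the gene's mean over 8 arrays, red higher and blue lower. The column of DA3 co-culture array 1 is the bluest, with a mean member level of 7.28, and Pola1 goes from red in co-cultured MBA-15 to blue in both DA3 groups.

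Licensing genes were led in range by Mcm6 and Cdt1, both at 0.88. Mcm6, a subunit of the replicative helicase ring, read 9.72 and 9.25 in co-cultured MBA-15, 9.66 and 9.41 on the labelled MBA-15 alone arrays, 9.22 and 9.14 in DA3 alone, and 8.47 and 8.84 in co-cultured DA3. Both DA3 co-culture arrays were below every other array. Cdt1, the loader of that ring, read 7.92 and 6.17 in co-cultured MBA-15, 7.61 and 7.28 on the labelled MBA-15 alone arrays, 7.43 and 6.96 in DA3 alone, and 6.06 and 7.06 in co-cultured DA3. For Cdt1 the 2 arrays of each co-culture group lay further apart than the group means, so the groups overlapped and have no order. Mcm7, another ring subunit, read 9.29 and 9.39 in DA3 alone and 8.09 and 9.21 in co-cultured DA3, 1 of whose arrays lay close to the DA3 alone pair. Its levels were 9.15 and 8.82 in co-cultured MBA-15 and 9.36 and 9.01 on the labelled MBA-15 alone arrays. The other licensing members (Orc1, Orc6, Cdc6, Mcm2, Mcm3, Mcm4 and Mcm5) had ranges of group means from 0.27 to 0.62.

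Among the 4 helicase activation genes Gins1, a subunit of the GINS complex, varied most. Its levels were 7.98 and 7.53 in DA3 alone, 7.68 and 7.54 on the labelled MBA-15 alone arrays, 6.24 and 7.81 in co-cultured DA3, and 6.77 and 6.07 in co-cultured MBA-15. Both MBA-15 co-culture arrays were below both arrays of each alone group, while the DA3 co-culture pair spanned nearly the whole range. Cdc45, Gins2 and Mcm10 had ranges from 0.39 to 0.67.

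Clamp loader subunits differed in which group was low. Rfc5 read 8.35 and 8.19 in DA3 alone, 8.08 and 7.81 on the labelled MBA-15 alone arrays, 7.67 and 8.07 in co-cultured DA3, and 7.57 and 7.07 in co-cultured MBA-15. Both MBA-15 co-culture arrays were the lowest for Rfc5. Rfc1, the large subunit, read 7.86 and 7.90 in co-cultured MBA-15, 7.66 and 7.74 on the labelled MBA-15 alone arrays, 7.82 and 8.02 in DA3 alone, and 7.29 and 7.22 in co-cultured DA3, so here the DA3 co-culture arrays stood apart below the rest. Pcna, the sliding clamp, had a range of 0.59 with its lowest mean in co-cultured DA3, and Rfc2, Rfc3 and Rfc4 had ranges from 0.42 to 0.72.

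Pola1 was the polymerase gene with the widest range. It read 7.86 and 8.25 in co-cultured MBA-15, 7.53 and 7.52 on the labelled MBA-15 alone arrays, 6.92 and 6.85 in DA3 alone, and 6.35 and 6.52 in co-cultured DA3. The 4 pairs did not overlap, and both pairs labelled MBA-15 were above both DA3 pairs. The catalytic subunit of polymerase epsilon, Pole, read 7.77 and 7.79 in DA3 alone, 7.57 and 7.43 in co-cultured MBA-15, 7.31 and 7.51 on the labelled MBA-15 alone arrays, and 7.38 and 7.17 in co-cultured DA3. Its partner subunit Pole2 read 6.83 and 6.54 in DA3 alone, 6.23 and 7.03 in co-cultured MBA-15, 6.64 and 6.33 on the labelled MBA-15 alone arrays, and 5.73 and 6.31 in co-cultured DA3. For both epsilon genes DA3 alone was above DA3 co-culture without overlap. Pold1, Prim1 and Prim2 had ranges from 0.39 to 0.43.

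Of the genes for single-strand binding and Okazaki fragments, Rpa2 and Rpa1, subunits of the protein that coats single-stranded DNA, varied most. Rpa2 read 7.42 and 8.17 in co-cultured MBA-15, 7.84 and 7.15 on the labelled MBA-15 alone arrays, 7.43 and 7.28 in DA3 alone, and 6.23 and 7.17 in co-cultured DA3. Rpa1 read 7.96 and 7.69 in co-cultured MBA-15, 7.64 and 7.66 on the labelled MBA-15 alone arrays, 7.60 and 7.51 in DA3 alone, and 7.22 and 7.17 in co-cultured DA3. The Rpa1 pairs lay in that order without overlap, and its DA3 co-culture pair was the lowest by a clear gap. The flap nuclease gene Fen1 and the ligase gene Lig1 had ranges of 0.40 and 0.52.

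Nucleotide supply was led by Tk1, the thymidine kinase of the S-phase salvage route. Tk1 read 9.74 and 9.73 in DA3 alone, 9.09 and 9.79 in co-cultured DA3, 9.54 and 9.25 on the labelled MBA-15 alone arrays, and 8.72 and 8.68 in co-cultured MBA-15. Rrm2, the regulated subunit of ribonucleotide reductase, read 10.13 and 9.95 in DA3 alone, 9.65 and 9.71 in co-cultured DA3, 10.11 and 9.65 on the labelled MBA-15 alone arrays, and 9.44 and 9.0 in co-cultured MBA-15. For both genes the 2 MBA-15 co-culture arrays were the lowest of the 8. Rrm1 and Tyms had ranges of 0.39 and 0.16.

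E2f1, the activating E2F factor of the G1/S group, read 7.76 and 7.30 in DA3 alone, 6.80 and 7.24 on the labelled MBA-15 alone arrays, 7.0 and 6.81 in co-cultured DA3, and 6.59 and 5.46 in co-cultured MBA-15. Ccne2, a cyclin E, ran the other way, at 6.87 and 7.43 in co-cultured MBA-15, 6.97 and 6.30 on the labelled MBA-15 alone arrays, 6.55 and 6.08 in DA3 alone, and 5.74 and 6.39 in co-cultured DA3. E2f1 was therefore lowest, and Ccne2 highest on average, in the MBA-15 co-culture fraction, with the Ccne2 pairs overlapping between neighbours in that order. Chaf1a, the large subunit of the chromatin assembly factor that loads histones behind the fork, read 7.52 and 7.17 in DA3 alone, 7.39 and 6.5 in co-cultured DA3, 6.72 and 6.92 on the labelled MBA-15 alone arrays, and 6.77 and 5.71 in co-cultured MBA-15. Ccne1, Uhrf1 and Chaf1b had ranges of 0.26, 0.38 and 0.49.

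The 2 fractions with the cleanest markers, DA3 alone and MBA-15 co-culture, gave the plainest comparison of the lines, although culture condition differs between them as well as line. Of the 40 members, 3 were higher in DA3 alone (E2f1, Tk1 and Rfc5) and 1 was lower (Pola1) at an adjusted p under 0.05, the threshold for every call below. Over all genes 6.47% were called higher and 6.08% lower, and among the 8841 genes whose mean lay within the members' range 11.4% and 8.25%. Among the members the shares were 7.5% higher and 2.5% lower, the first near the share of all genes and the second below it. The members' median change was 0.22 on the log2 scale, with 26 above 0 and 14 below, beside a median of 0.14 for the genes of like level.

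By size, E2f1 was 2.85-fold higher in DA3 alone (1.51 ± 0.38, log2 change ± SE; limma, Benjamini-Hochberg adjusted p = 0.0474). Tk1 was 2.04-fold higher (1.03 ± 0.24; limma adjusted p = 0.0349) and Rfc5 1.93-fold higher (0.95 ± 0.22; limma adjusted p = 0.0394). Pola1 was 2.25-fold lower in DA3 alone (-1.17 ± 0.16; limma adjusted p = 0.00508). The descriptions also give an assay number, with no meaning stated. In assays 3 and 4, which each hold 1 array of both groups, the changes were 1.85 and 1.17 for E2f1, 1.04 and 1.02 for Tk1, 1.12 and 0.78 for Rfc5, and -1.40 and -0.94 for Pola1. Gins1 (1.33 ± 0.50, limma adjusted p = 0.161) and Chaf1a (1.11 ± 0.41, limma adjusted p = 0.158) did not pass, despite changes as large. The second probe set of Tk1 gave 0.75 for the same change. With 1 of the arrays labelled MBA-15 alone left out, which enter only through the shared estimate of spread, only Pola1 was called, and the same held with 1 of the DA3 alone arrays or with MBA-15 co-culture array 2 left out.

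**Figure D2:**
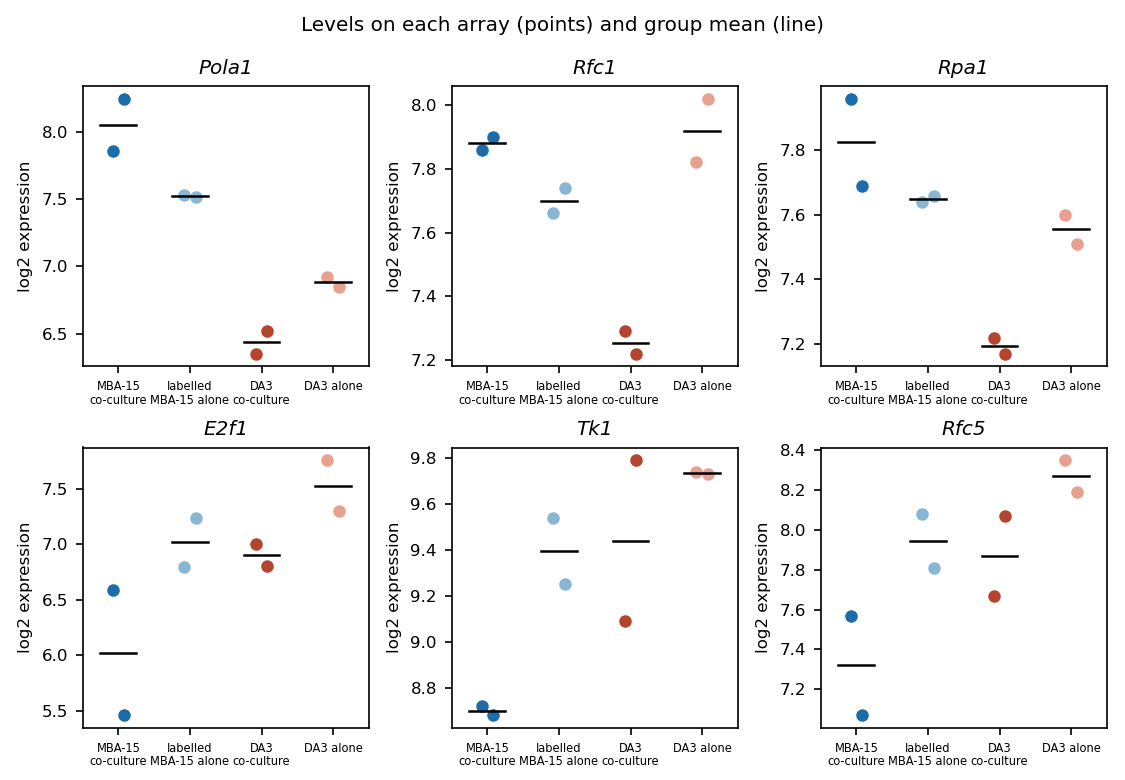
Log2 level on each array (points) and group mean (line) for the 6 members called in a comparison of the lines, each panel with its own axis. Pola1 goes from 8.05 in co-cultured MBA-15 to 6.43 in co-cultured DA3, while E2f1, Tk1 and Rfc5 are lowest in co-cultured MBA-15.

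Other genes of the replication pathway were read from a list of 58. Between DA3 alone and MBA-15 co-culture 8 of the 58 (13.8%) were higher and 0 lower in DA3 alone (limma, adjusted p under 0.05). Over all genes the shares were 6.47% and 6.08%, and among genes of like level to the members 11.4% and 8.25%. The limma unadjusted p was under 0.05 for 19 of 58 (32.8%), against 24.1% of all genes and 37.1% of genes of like level. Pold2, the small accessory subunit of polymerase delta, was higher by 2.41 ± 0.31, Ccnd2, a D-type cyclin, by 1.79 ± 0.29, and Rnaseh2a, which removes ribonucleotides from DNA, by 1.55 ± 0.32. The other 5 were Mcm8, Donson, Chtf18, Asf1b and E2f8, with changes from 0.58 to 1.39. A list of 7 genes that restrain entry into S phase held 6 kinase inhibitors and Rb1, which represses E2F. Of the 7, 2 were called higher in DA3 alone, Cdkn2a by 2.41 ± 0.33 and Cdkn2b by 2.40 ± 0.29, and 0 lower. Cdkn2a read 6.98 and 7.59 in DA3 alone against 4.72 and 5.03 in co-cultured MBA-15, and Cdkn2b 6.65 and 7.20 against 4.44 and 4.61. The array medians lay between 4.479 and 4.642, so in co-cultured MBA-15 Cdkn2b was near them and Cdkn2a a little above. The other 5 did not pass, and 2 of the 7 were below 0.

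The 2 fractions of the co-culture itself, DA3 minus MBA-15, had 0 members called higher and 3 called lower in DA3, against 4.48% and 8.28% of all genes and 7.56% and 14.0% of genes of like level. The 3 were Pola1, Rfc1 and Rpa1. Pola1 was 3.07-fold lower in the DA3 fraction (-1.62 ± 0.16, limma adjusted p = 0.00181). The log2 change was -0.62 ± 0.13 for Rfc1 (limma adjusted p = 0.0227) and -0.63 ± 0.14 for Rpa1 (limma adjusted p = 0.0294). In assay 3, which holds 1 array of each fraction, the changes were -1.90 for Pola1, -0.61 for Rfc1 and -0.46 for Rpa1. This comparison shares its MBA-15 co-culture arrays with the one before it. Rpa2 (-1.09 ± 0.40, limma adjusted p = 0.134), Ccne2 (-1.09 ± 0.34, limma adjusted p = 0.0933) and Mcm6 (-0.83 ± 0.21, limma adjusted p = 0.0510) did not pass. E2f1 was at 0.89 ± 0.38 in the opposite direction (limma adjusted p = 0.187).

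By role, the medians between the co-culture fractions ran from -0.38 for licensing, where 9 of 10 were below 0, through -0.33 for polymerases, with 5 of 6 below 0, to 0.30 for nucleotide supply, where 3 of 4 were above 0. The median of all members was -0.20, beside -0.13 for genes of like level. Without DA3 co-culture array 1 it was 0.13, and without array 2 it was -0.43, so its sign rested on 1 array. Without array 2 only Pola1 kept its call, and with quantile normalization the calls were Pola1 lower and Tk1 higher. From the further list, 5 genes were lower in the DA3 fraction (Mcmbp, Cdc7, Wdhd1, Atad5 and Skp2) and 2 higher (Pold2 and Chtf18), of 58. These were 8.62% and 3.45% of the list, against 8.28% and 4.48% of all genes and 14.0% and 7.56% of genes of like level. Atad5, which unloads Pcna, had a log2 change of -1.22 ± 0.23 (limma adjusted p = 0.0184), and Wdhd1, which ties polymerase alpha to the helicase, one of -1.09 ± 0.21 (limma adjusted p = 0.0196). Pold2 was higher by 1.83 ± 0.31 (limma adjusted p = 0.0121).

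Within DA3, the comparison of co-culture with culture alone asks what contact with the stromal line does to the carcinoma line. Every one of the 40 members had a lower mean in co-cultured DA3 than in DA3 alone, with a median change of -0.37 and a range from -0.73 (Gins1) to -0.02 (Tyms). None passed the threshold in either direction: limma called 0 of 40, against 0.0100% of all genes higher and 0.0301% lower, and 8 of 40 had an unadjusted p under 0.05. Most genes of like level also read lower: their median was -0.27 and 76.0% were below 0, whereas over all genes the median was 0.04 and 44.6% were below 0. With the median change of genes of like level taken off each member, the members' median was -0.10 and 30 of 40 were below 0. With quantile normalization of the arrays the median was -0.15 and 31 of 40 were below 0. The DA3 alone arrays here are those of the comparison with co-cultured MBA-15.

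For 22 of the 40 members both DA3 co-culture arrays were below both DA3 alone arrays, and for 0 both were above. Over all genes those shares were 22.4% and 31.4%, and among genes of like level 41.0% and 8.91%. By role the 22 took in 5 of 6 polymerase and primase genes, 6 of 10 licensing genes, 3 of 4 genes of single-strand binding and Okazaki fragments, 3 of 6 clamp genes and 0 of 3 chromatin genes. The 4 members of lowest p had standard errors of 0.16 or less. Rfc1 changed by -0.67 ± 0.13 (limma unadjusted p = 0.00135, adjusted p = 0.146), Pole by -0.51 ± 0.14 (adjusted p = 0.229), Mcm4 by -0.48 ± 0.15 (adjusted p = 0.260) and Pcna by -0.50 ± 0.16 (adjusted p = 0.265). The second Pcna probe set gave -0.56. Of like or larger size but more scattered were Gins1 (-0.73 ± 0.50), Mcm7 (-0.69 ± 0.35), Pole2 (-0.66 ± 0.31) and Rpa2 (-0.65 ± 0.40), with limma adjusted p of 0.381 or more.

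**Figure D3:**
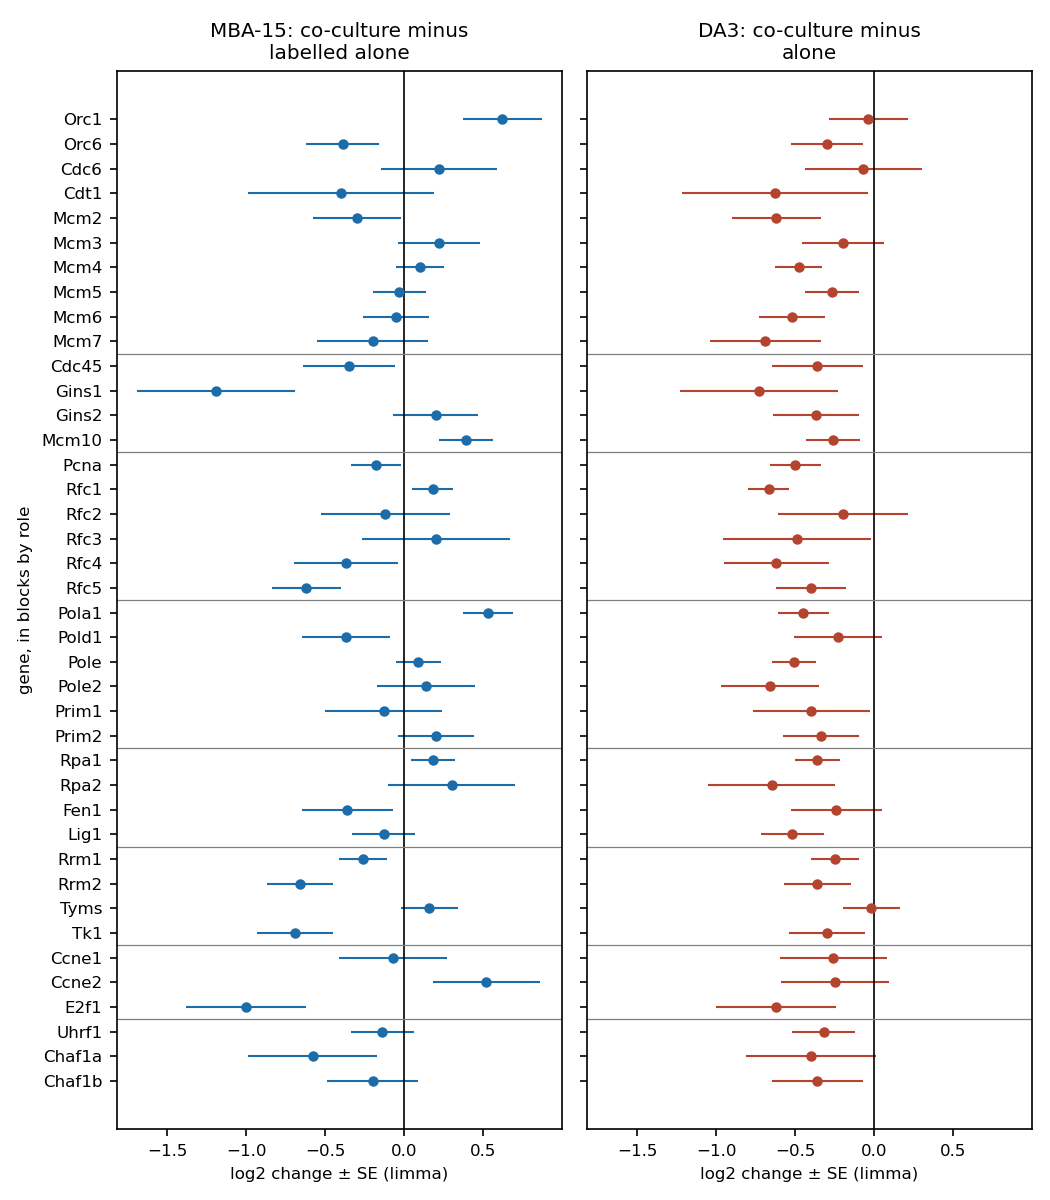
Log2 change with co-culture ± SE (limma) for each member, in blocks by role, in MBA-15 against the labelled alone arrays (left) and in DA3 (right). In DA3 all 40 points lie left of 0, while in MBA-15 24 lie left and 16 right.

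DA3 co-culture array 1 carried much of this shift. Against the mean of DA3 alone, 39 of 40 members were lower on array 1, with a median of -0.60, but 27 of 40 on array 2, with a median of -0.14. The genes of like level had medians of -0.27 and -0.24 on the same arrays. The median shift therefore differed between the arrays in the members and little in that background. Without regard to sign, the median difference between the 2 arrays was 0.49 for the members and 0.44 for genes of like level. On array 2 the members' median was above that of genes of like level. Between the 2 DA3 co-culture arrays the members' median difference was -0.44, array 1 being lower for 34 of 40, while that of genes of like level was 0.00. In the other groups the median difference of array 1 from array 2 was 0.07 (MBA-15 co-culture), 0.28 (labelled MBA-15 alone) and 0.13 (DA3 alone). Array 1 came from assay 3, as did 1 DA3 alone array, and within that assay 38 of 40 members were lower in co-culture with a median of -0.56. Genes of like level had a median of -0.23 within that assay, and 5990 of 8841 were below 0. Array 2 was the only array of assay 5, so for it the assay and the array cannot be told apart.

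Stromal markers also differed between the DA3 groups. Of 13 markers, 11 were higher in co-cultured DA3 by group mean, with a median change of 0.91. Of the 13, 0 passed the threshold, but 9 had an unadjusted p under 0.05 in limma, against 14.9% of all genes. The list mean was 6.91 on co-culture array 1 and 6.33 on array 2, against 5.72 and 5.78 in DA3 alone. Col1a1, a stromal collagen, read 9.61 and 7.78 in co-cultured DA3 against 6.65 and 6.91 in DA3 alone. The part of stromal RNA in the change of the replication genes was not tested. In bulk RNA, fewer cells of a type and less RNA per cell cannot be told apart. All 7 genes of the list that restrains S-phase entry had lower means in co-cultured DA3, with a median of -0.63 and 0 of 7 called. Of the 58 other replication genes 52 were below 0, with a median of -0.33, and 0 were called. The limma unadjusted p was under 0.05 for 14 of the 58 (24.1%), against 21.5% of genes of like level to the members. Pold4, an accessory subunit of polymerase delta, was the exception in size among them at 1.32 ± 0.54 (limma adjusted p = 0.330).

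**Figure D4:**
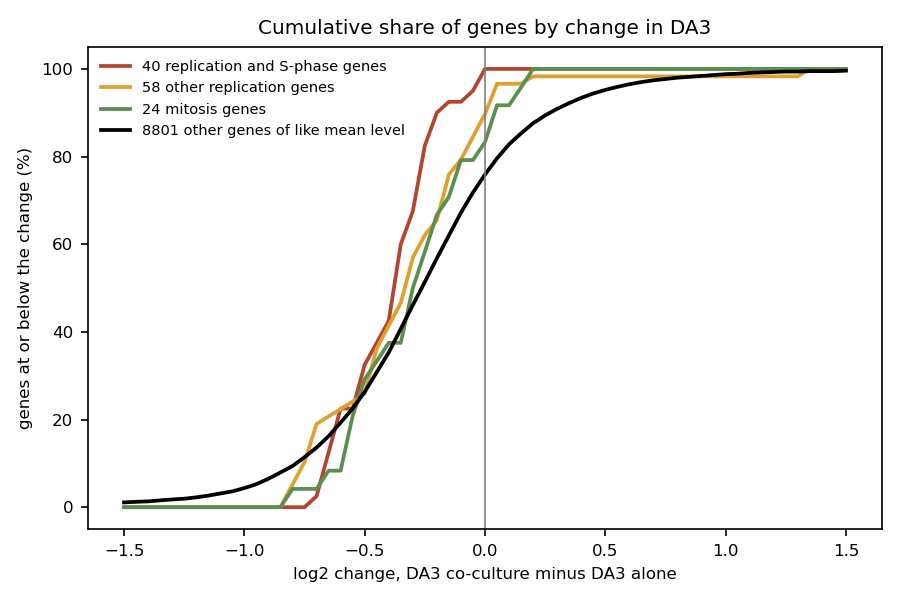
Cumulative percentage of genes (y axis) at or below a given log2 change in DA3 co-culture minus DA3 alone (x axis) for the members, the further replication genes, the mitosis genes and genes of like mean level. The members reach 100% by a change of 0, where genes of like level stand at 75.9%.

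Within MBA-15, the labels set co-culture against culture alone, but the alone arrays hold epithelial markers. No member was called (0 of 40, with 6 at an unadjusted p under 0.05), against 0.0752% of all genes higher and 0.772% lower. The members' median was -0.12, with 24 below 0, beside -0.10 for genes of like level, and within assays 3 and 4 it was -0.02 and -0.19. The array pairs did not overlap for 6 members that were higher in co-culture (Orc1, Mcm3, Mcm10, Rfc1, Pola1 and Rpa1) and for 9 that were lower (Orc6, Cdc45, Gins1, Rfc4, Rfc5, Rrm1, Rrm2, Tk1 and E2f1). The shares over all genes were 22.3% and 16.1%, and among genes of like level 12.2% and 27.0%.

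Gins1 had the largest change in co-cultured MBA-15 at -1.19 ± 0.50 (limma adjusted p = 0.516), followed by E2f1 at -1.0 ± 0.38 (limma adjusted p = 0.440). Tk1 was at -0.69 ± 0.24 (limma adjusted p = 0.374) and Rrm2 at -0.66 ± 0.21 (limma adjusted p = 0.350). Nucleotide supply was the role group with the lowest median, -0.46, with 3 of 4 below 0, while the polymerase and primase genes had a median of 0.12. Over the same arrays all 12 epithelial markers were called lower in co-culture, by -2.70 to -4.27. The mean of the labelled MBA-15 alone arrays lay between those of MBA-15 co-culture and DA3 alone for 27 of 40 members (67.5%), and for 66.9% of genes of like level. The part of epithelial RNA in the replication changes was not tested.

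The arrays labelled alone were compared across lines in the same way. Between DA3 alone and labelled MBA-15 alone limma called 0 of 40 members, against 0.186% of all genes higher and 2.70% lower. Unadjusted p was under 0.05 for 2 members (5.0%), Pola1 and Pole, against 11.9% of all genes and 16.8% of genes of like level. Pola1 had the largest change at -0.65 ± 0.16 (limma adjusted p = 0.121), followed by Chaf1a at 0.53 ± 0.41, E2f1 at 0.51 ± 0.38 and Pole at 0.37 ± 0.14 (limma adjusted p of 0.356 or more). The members' median was 0.10, with 11 of 40 below 0, beside 0.06 and 44.4% for genes of like level and 0.05 and 39.4% for all genes. Without labelled MBA-15 alone array 1 it was 0.27 and without array 2 it was -0.07, so the sign rested on that array.

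Whether co-culture acted differently on the lines was tested as the difference of the co-culture changes, DA3 minus MBA-15. Limma called 0 of 40 members, 6 having an unadjusted p under 0.05, against 0.0602% of all genes higher and 0% lower. Pola1 had the largest difference at -0.97 ± 0.23 (limma adjusted p = 0.392), then Rpa2 at -0.95 ± 0.56 (0.914), Rfc1 at -0.85 ± 0.18 (0.305) and Pole2 at -0.81 ± 0.44 (0.896). The members' median difference was -0.28, with 30 of 40 below 0, beside -0.13 for genes of like level. It was -0.03 without DA3 co-culture array 1. The MBA-15 side of this difference rests on the labelled alone arrays with their epithelial markers.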

How the data were processed

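Total RNA of 8 samples was hybridised to 1-colour Affymetrix MoGene ST arrays. The authors deposited log2 expression values per probe set, made with RMA and Partek 6.5 per the submitters' processing notes; the log2 scale was read from the values and the method. RMA normalizes between arrays, so a change is relative to the array's other genes. Of 35556 probe sets 21789 had 1 gene symbol, 1621 several and 12146 none listed; the brightest probe set of a gene was kept, leaving 19938 genes, with no filter. Array medians lay between 4.479 and 4.642. The number of arrays limits the precision.

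A single limma 3.58.1 fit in R 4.3.3 (lmFit, contrasts.fit, eBayes) of 4 group means over all 8 arrays gave every contrast, on 4 residual plus 2.6 prior degrees of freedom. Tests are two-sided and adjusted after Benjamini and Hochberg over all genes, with a call at an adjusted p under 0.05. Errors are standard errors from limma. Genes of like level are the 8841 genes with a mean between 5.10 and 10.35. To take off their change, genes were split by mean level into 20 bins and each bin's median change was subtracted. Members, lists and tests were chosen with earlier results of these data known. Values on every array are given for the 4 largest changes and all calls of each comparison, and for the member of widest range in each role group. Other members are named by role. Of each further list, up to 3 genes of largest change per comparison have values, beside Epcam; further calls are named without statistics or with their range. The lists held 58 further replication genes, 24 mitosis genes, 7 genes that restrain S-phase entry and 12 epithelial, 13 stromal and 7 leukocyte markers that were measured. Alternatives were an intensity trend, replicate and assay blocks, a filter on dim genes, the mean of probe sets, 2 scalings, fewer samples in the fit and leaving out each array. The scripts were tested on simulated data. Promoters were RefSeq windows of GRCm38.p6, matched by symbol.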

Additional observations from a re-analysis of the deposited data

Results flagged for a closer look

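For 4 members both MBA-15 co-culture arrays lay above both labelled MBA-15 alone arrays while both DA3 co-culture arrays lay below both DA3 alone arrays. The same joint pattern was seen in 2.17% of all genes and in 4.08% of genes of like level, against 10.0% of the members. The difference of the co-culture changes, DA3 minus MBA-15, was -0.97 (SE 0.23) for Pola1, -0.85 (SE 0.18) for Rfc1, -0.64 (SE 0.24) for Mcm10 and -0.54 (SE 0.19) for Rpa1. The test of the difference itself passed for none of the 4: the limma adjusted p was 0.392, 0.305, 0.737 and 0.691. The labelled MBA-15 alone arrays carry epithelial markers, whose part in these differences was not tested.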

How the results depend on the processing

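With 2 arrays a group, the members' medians moved with single arrays. In DA3 co-culture minus alone the median of -0.37 ranged from -0.60 to -0.14 with 1 array left out, was -0.56 with the assay block and -0.15 with quantile normalization. Without DA3 co-culture array 1 Gins1 turned to 0.06 there (limma adjusted p = 0.928), and over all arrays left out it ranged from -1.51 to 0.06. In DA3 alone minus labelled MBA-15 alone the median of 0.10 ranged from -0.07 to 0.27 and was 0.26 with arrays centred on their medians. For the co-culture fractions the median of -0.20 ranged from -0.43 to 0.13 and was -0.40 with the assay block and -0.03 with quantile normalization. The median difference of the co-culture changes, -0.28, ranged from -0.61 to -0.03 and was -0.48 with the assay block. The 4 calls of DA3 alone minus MBA-15 co-culture ranged from 1 to 4 with 1 array left out. They were 2 with only the groups compared in the fit (Pola1 and Tk1) and 1 without the arrays labelled MBA-15 alone (Pola1). The 3 calls of the co-culture fractions ranged from 1 to 3, and were 1 (Pola1) with the intensity trend, with the assay block and with only the groups compared. Pola1 kept its call in both comparisons under every alternative run. Of the values of named members, 405 kept their direction and side of the threshold, 49 lost the call, 5 gained it and 1 reversed. Centring the arrays moved the median of all genes from 0.04 to 0.15 (MBA-15), from 0.05 to 0.21 (the alone groups) and from 0.02 to -0.13 (the difference). Quantile normalization moved the calls over all genes between the co-culture fractions from 894 higher and 1651 lower to 1281 and 1392.

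Same-numbered arrays were not shown to be paired: the correlation of their deviations ran from -0.413 to 0.311 over the pairs of groups. With a replicate block the calls were 3 in DA3 alone minus MBA-15 co-culture (Pola1, Rrm2 and E2f1) and 3 between the co-culture fractions, and 0 in the other comparisons. Rfc5 and Tk1 had a limma adjusted p of 0.0542 each with that block in the first of these.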

Other observations

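Genes of mitosis, the next stage of the cycle, were read from a list of 24. In DA3 alone minus MBA-15 co-culture 3 of 24 (12.5%) were called higher and 0 lower, against 6.47% and 6.08% of all genes. Among genes of like level to the members the shares were 11.4% and 8.25%. The mitosis median was 0.52, beside 0.22 for the replication genes and 0.14 for genes of like level. The 3 were Aurka, a spindle kinase, higher by 1.69 ± 0.12, Tpx2, its activator, by 0.93 ± 0.20, and Cenpa, the centromeric histone, by 0.84 ± 0.12. Aurka read 9.58 and 9.67 in DA3 alone, 9.53 and 9.42 in DA3 co-culture, 9.05 and 9.03 on the labelled MBA-15 alone arrays, and 7.89 and 7.97 in MBA-15 co-culture. It was also called lower in MBA-15 co-culture than on those labelled arrays (-1.11 ± 0.12, limma adjusted p = 0.0123), which carry epithelial markers. In DA3 co-culture minus alone the mitosis genes had a median of -0.29, with 20 of 24 below 0 and 0 called. The limma unadjusted p was under 0.05 for 7 of 24 (29.2%), against 14.9% of all genes and 21.5% of genes of like level to the members. Those genes of like level had a median of -0.27, with 76.0% below 0. With the median change of genes of like level taken off each mitosis gene, their median was -0.01 and 13 of 24 were below 0.

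The 13 members with an E2F word had a median change between the co-culture fractions of -0.42 and the 20 with a promoter and no word one of 0.06. Genes of like level had a median of -0.13 there, and the sign of the median of all members rested on a single array. In DA3 co-culture minus alone the medians were -0.45 and -0.36. In MBA-15 co-culture minus labelled alone they were -0.03 and -0.28. They were 0.05 and 0.40 in DA3 alone minus MBA-15 co-culture, and 0.02 and 0.15 between the alone groups. For the difference of the co-culture changes they were -0.42 and -0.17. These are descriptions with no test.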
